A study of Homo sapiens with 4 samples.

Results

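Hypoxia-induced glycolysis genes and other targets of the hypoxia-inducible factors (HIF) were followed in U87MG, an established human glioblastoma cell line. The 54 names of the list were matched to the gene symbols of a human PrimeView array, and 50 of them were found among the 18132 genes that had a probe set with a single symbol. A gene with several probe sets was represented by the brightest, judged on the average of all 4 arrays. SLC2A3, a neuronal-type glucose transporter gene, was read only on probe sets shared with its close relative SLC2A14 and was not used. INSIG2-HIF and EFNA1-HIF are not symbols of the array, and the lactate exporter gene SLC16A3 was not analysed here.

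Both groups were cultured at 0.2% oxygen and harvested 48 hours after transfection. In the first group, 2 arrays came from cells given a vector for overexpression of NeuroD2, which drives neuronal differentiation as a basic helix-loop-helix transcription factor. In the second, 2 arrays came from cells given the PCMV control vector. The labels call the arrays of a group biological replicates and do not describe separate cultures. The p-values therefore measure the spread between these samples, which may be technical. The labels describe transfected cells and no selected clone, and in bulk RNA the share of cells that took up the vector and the change per cell cannot be told apart. No array came from cells in ordinary oxygen, so whether hypoxia raised any of these genes was not measured, and every difference is one between vectors within hypoxia.

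When oxygen is scarce, HIF alpha subunits escape degradation, pair with ARNT and bind the hypoxia response element, a short DNA motif near their target genes. Targets include most enzymes that convert glucose to lactate, kinases that keep pyruvate out of mitochondria, receptors for the removal of mitochondria, enzymes of collagen modification and secreted factors. In glioblastoma this programme is best known around the necrotic, poorly perfused parts of the tumour.

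NEUROD2 itself had log2 levels of 7.37 and 7.82 with the NeuroD2 vector and 5.46 and 5.35 with the control vector, a 4.58-fold difference (adjusted p = 0.0044 by limma). Without control replicate 1 or control replicate 2 the difference was 2.25 and 2.14 in log2. No call was read from those fits, which leave 1 control array. Over the alternatives the adjusted p ran from 0.00014 to 0.495. Its other 2 probe sets differed by -0.21 and -0.07, and averaging all 3 gave 0.64 (adjusted p = 0.013). None of 7 glioma and astroglial markers passed, with differences from -0.25 in NES to 0.39 in OLIG2 (adjusted p = 0.0829). The mesenchymal and glial genes VIM and CD44 were at 14.14 ± 0.01 and 12.85 ± 0.01 with the NeuroD2 vector and 14.15 ± 0.04 and 12.83 ± 0.13 with the control vector (log2, SD, n = 2 each), while the stem-cell factor gene SOX2 lay between 4.36 and 4.73 and no detection call was used. None of the 10 immune, endothelial and epithelial markers passed the test. Of 6 neuronal markers 1 passed, SNAP25, which fell by 0.59 (adjusted p = 0.0312 by limma). The others did not pass: STMN2 (0.21), GAP43 (0.12) and RBFOX3 (0.08) had differences above 0. TUBB3 (-0.14), the brightest of the 6, and SYN1 (-0.05) had differences below 0. The log2 of the summed linear levels of the 6 was 11.22 to 11.25 with the NeuroD2 vector, against 11.39 to 11.41 with the control vector. Spiked-in hybridisation controls averaged 10.10 and 10.13 with the NeuroD2 vector and 9.56 and 9.90 with the control vector. The 24 poly-A spike probe sets were all lowest on control replicate 1, where they averaged 6.95. The part of these differences in the results was not tested.

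With the NeuroD2 vector, 5 of the 50 members fell and 1 rose at an adjusted p below 0.05 (limma, Benjamini-Hochberg over all genes), and 44 did not pass. Among all genes, 2.96% fell and 1.81% rose by the same rule, 4.77% in all. The genes that fell were ALDOC, PFKFB4, FAM162A, TMEM45A and ANKRD37, and the gene that rose was STC1. Because 48 of the 50 members lay at or above the median level of all genes, the same fit was also counted over the 9066 genes at or above that level, of which 4.68% fell and 3.07% rose, 7.74% in all. The median log2 difference was -0.11 over the members, against 0.00 over all genes and -0.03 over the genes at or above the median level. The difference was below 0 in 39 of 50 members, against 49.9% of all genes and 56.4% of the brighter ones. The groups did not overlap in 40 members, 32 lower and 8 higher with the NeuroD2 vector, against 50.8% of all genes (26.6% lower and 24.2% higher) and 64.5% of the brighter ones (37.6% lower and 26.8% higher). At an unadjusted p below 0.05 there were 21 members, 15 lower and 6 higher, against 21.8% of all genes (12.5% lower and 9.27% higher) and 30.6% of the brighter ones (19% lower and 11.6% higher).

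The member counts were taken from the fit of all 4 arrays. With any 1 array left out, which leaves 1 array in a group, no member passed. Few or no genes of the whole array passed in these fits either, so they cannot show whether a member would pass. The 6 genes kept their direction in each of them. ALDOC differed by -0.85 to -0.78, PFKFB4 by -0.61 to -0.58 and FAM162A by -0.53 to -0.40. TMEM45A differed by -0.50 to -0.40, ANKRD37 by -0.44 to -0.37 and STC1 by 0.47 to 0.55. Without control replicate 1 the median over the members was -0.09.

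**Figure D1:**
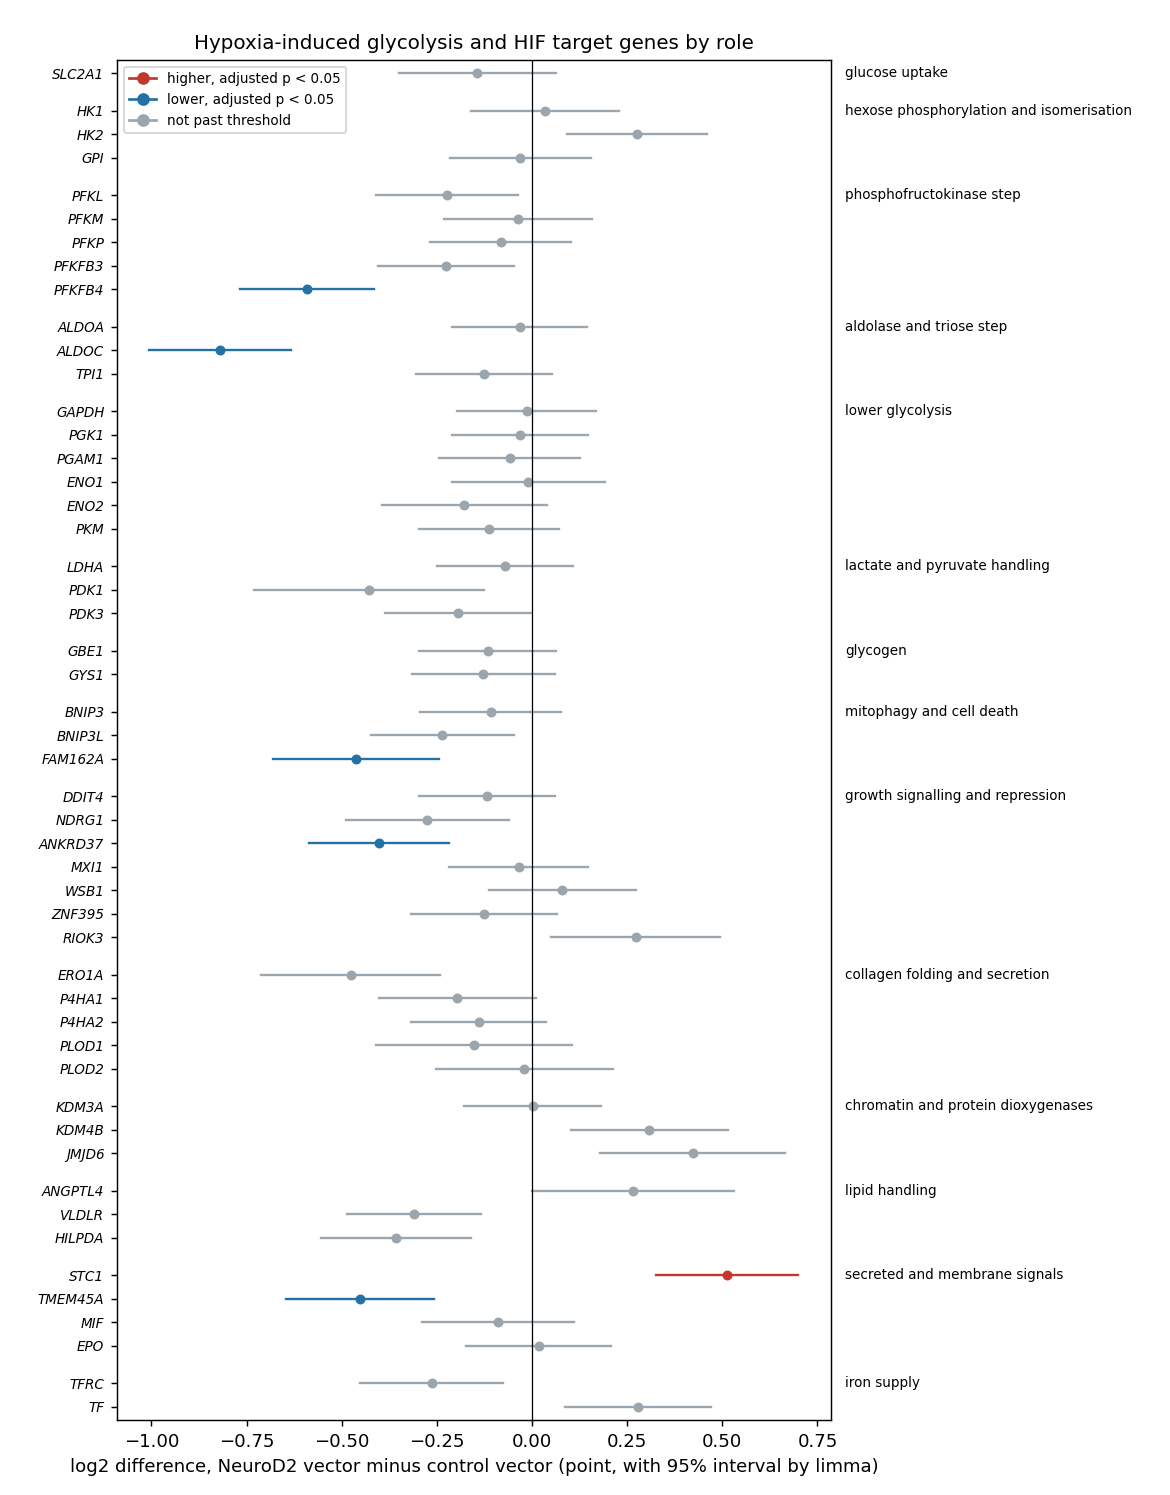
Log2 difference (NeuroD2 vector minus control vector, x axis) of each of the 50 measured members, grouped by role down the page, with 95% intervals by limma from 2 arrays per group. Blue marks the 5 genes that fell and red the gene that rose at an adjusted p below 0.05; most of the other points lie left of 0.

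**Figure D2:**
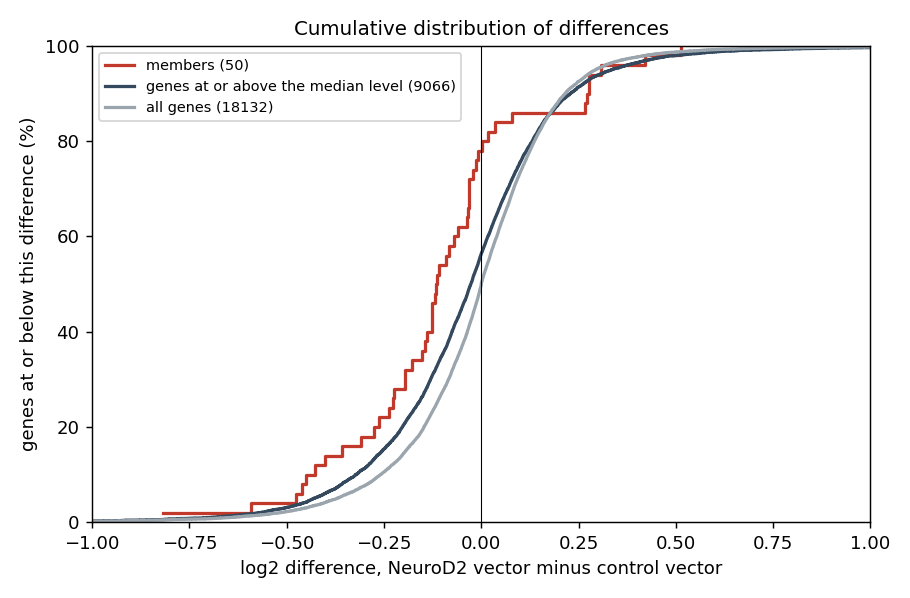
Cumulative share of genes (y axis, percent) at or below each log2 difference (x axis), for the members, for the genes at or above the median level and for all genes. The member curve lies above the others over most of the range below 0; its median is -0.11, against -0.03 and 0.00.

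The largest difference among the members was in the aldolase step. ALDOC, the brain-enriched aldolase gene, had log2 levels of 8.07 and 8.01 with the NeuroD2 vector and 8.89 and 8.82 with the control vector. Both NeuroD2 arrays lay far below both control arrays, with a gap many times the spread within either group. ALDOC fell by 0.82, or 1.76-fold (standard error 0.08, adjusted p = 0.0088 by limma). All 5 of its probe sets differed in the same direction, by -0.82 to -0.40, and 4 of them passed when every probe set was tested on its own. The smallest of these differences, -0.40, was on the brightest probe set without the suffix x_at, which marks a kind that can match other transcripts. With that probe set in its place ALDOC did not pass (adjusted p = 0.108 by limma). The other ALDOC probe set without the suffix differed by -0.75 (adjusted p = 0.0434 over all probe sets). Over the alternatives with 2 arrays per group the adjusted p ran from 0.00044 to 0.108. ALDOA, the aldolase gene of most tissues, was at 13.31 ± 0.01 with the NeuroD2 vector and 13.35 ± 0.03 with the control vector (log2, SD, n = 2 each). Its difference of -0.03 had a 95% interval of -0.21 to 0.14. TPI1, which interconverts the triose products of aldolase, differed by -0.13 (adjusted p = 0.382).

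At the phosphofructokinase step, 1 of 5 genes fell, and the other 4 had differences below 0 that did not pass. The gene that fell, PFKFB4, encodes a bifunctional enzyme that makes and removes a potent activator of phosphofructokinase. Its log2 levels were 9.14 and 9.17 with the NeuroD2 vector and 9.73 and 9.76 with the control vector. The groups were well apart and each pair of replicates lay close together. PFKFB4 fell by 0.59, or 1.51-fold (standard error 0.07, adjusted p = 0.0167 by limma). Its 4 probe sets differed by -0.59 to -0.47, and 2 of them passed when every probe set was tested on its own. Its paralog PFKFB3, whose enzyme is strongly biased towards making the activator, had 10.33 and 10.33 with the NeuroD2 vector and 10.53 and 10.59 with the control vector. That difference of -0.23 did not pass (adjusted p = 0.149), and 1 of the 4 PFKFB3 probe sets differed in the other direction (0.16). Of the catalytic subunits, the liver-type PFKL differed by -0.22 (adjusted p = 0.164), the muscle-type PFKM by -0.04 and the platelet-type PFKP by -0.08.

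The remaining glycolytic genes did not pass the test. SLC2A1, the glucose transporter gene of most hypoxic cells, had log2 levels of 10.23 and 10.28 with the NeuroD2 vector and 10.47 and 10.33 with the control vector (difference -0.14, adjusted p = 0.388). HK2, the inducible hexokinase gene, was the 1 glycolytic member with a positive difference above 0.1. It had 10.00 and 10.02 with the NeuroD2 vector and 9.77 and 9.70 with the control vector, with no overlap (difference 0.28, adjusted p = 0.103). On its second probe set HK2 differed by 0.44 (adjusted p = 0.0514 over all probe sets). The constitutive hexokinase gene HK1 differed by 0.03 and the isomerase gene GPI by -0.03. From glyceraldehyde phosphate to pyruvate, 6 of 6 genes had differences below 0, from -0.18 in the neuronal enolase gene ENO2 to -0.01 in the common enolase gene ENO1. GAPDH (-0.01), the kinase gene PGK1 (-0.03), the mutase gene PGAM1 (-0.06) and the pyruvate kinase gene PKM (-0.11) lay between them, with adjusted p-values of 0.317 or more for all 6. LDHA, which makes lactate, was at 13.93 ± 0.01 with the NeuroD2 vector and 14.00 ± 0.03 with the control vector (SD, n = 2 each; difference -0.07, 95% interval -0.25 to 0.11).

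PDK1 and PDK3 encode kinases that switch off pyruvate dehydrogenase and so divert pyruvate to lactate. PDK1 had log2 levels of 8.41 and 8.48 with the NeuroD2 vector and 8.71 and 9.04 with the control vector. The groups did not overlap, but the control arrays lay much further apart than the NeuroD2 arrays. The difference of -0.43 did not pass (adjusted p = 0.117) and was -0.26 without control replicate 2, and that of PDK3 was -0.19 (adjusted p = 0.225). Over the 16 enzyme genes from hexokinase to lactate dehydrogenase the median difference was -0.05, 1 gene fell and 15 did not pass.

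**Figure D3:**
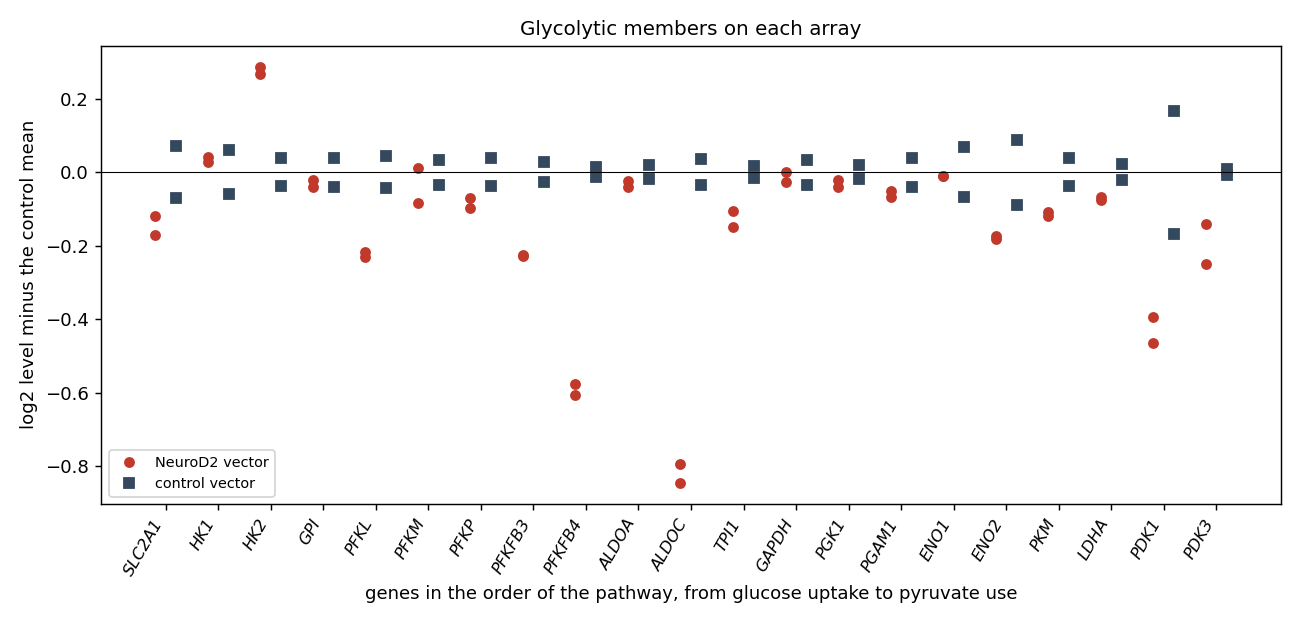
Log2 level minus the control mean (y axis) on each array for the 21 measured glycolytic members in pathway order (x axis); circles are the 2 NeuroD2 arrays and squares the 2 control arrays. ALDOC and PFKFB4 lie below -0.5 on both NeuroD2 arrays, while 14 of the 16 enzyme genes differ by less than 0.25 in either direction.

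Among genes of mitochondrial removal and cell death, 1 of 3 fell. FAM162A encodes a hypoxia-induced mitochondrial protein linked to apoptosis. It had log2 levels of 10.83 and 10.71 with the NeuroD2 vector and 11.30 and 11.17 with the control vector. The gap between the groups was larger than the distance between replicates, and FAM162A fell by 0.46, or 1.38-fold (standard error 0.09, adjusted p = 0.047 by limma). Its second probe set, with a mean level of 3.94, differed by 0.06. With the mean of both the difference was -0.20 (adjusted p = 0.313; 0.0038 to 0.313 across alternatives). The mitophagy receptor genes BNIP3 and BNIP3L differed by -0.11 (adjusted p = 0.471) and -0.24 (adjusted p = 0.15).

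Of 7 genes grouped under growth signalling and repression, 1 fell. ANKRD37, an ankyrin-repeat protein gene and HIF target, had log2 levels of 7.85 and 7.78 with the NeuroD2 vector and 8.20 and 8.23 with the control vector. All values with the NeuroD2 vector were lower, and ANKRD37 fell by 0.40, or 1.32-fold (standard error 0.07, adjusted p = 0.0439 by limma). Its second probe set, at a mean of 3.64, differed by -0.04, and with the mean of both the difference was -0.22 (adjusted p = 0.125; 0.0077 to 0.311 across alternatives). The stress-response gene NDRG1 had 10.69 and 10.66 with the NeuroD2 vector and 11.03 and 10.86 with the control vector. Its difference of -0.27 did not pass (adjusted p = 0.146), and its 6 probe sets ran from -0.27 to -0.01. DDIT4, an inhibitor of mTOR signalling, differed by -0.12 and the transcription factor gene ZNF395 by -0.13. MXI1, an antagonist of MYC, differed by -0.04 and the ubiquitin ligase subunit gene WSB1 by 0.08. RIOK3, an atypical kinase gene, had 10.32 and 10.30 with the NeuroD2 vector and 9.94 and 10.13 with the control vector, a difference of 0.27 that did not pass (adjusted p = 0.158) and was 0.18 without control replicate 1.

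Among secreted and membrane proteins, STC1 rose and TMEM45A fell. STC1 encodes stanniocalcin, a secreted glycoprotein hormone. Its log2 levels were 12.99 and 13.03 with the NeuroD2 vector and 12.54 and 12.46 with the control vector. The values with the NeuroD2 vector were higher throughout, and STC1 rose by 0.51, or 1.43-fold (standard error 0.08, adjusted p = 0.0267 by limma). Its 4 probe sets differed by 0.39 to 0.77, and 3 of them passed on their own. TMEM45A encodes a transmembrane protein that hypoxia induces in several cell types. It had 9.10 and 9.03 with the NeuroD2 vector and 9.47 and 9.56 with the control vector. The groups were separated by more than the spread in either, and TMEM45A fell by 0.45, or 1.37-fold (standard error 0.08, adjusted p = 0.0391 by limma). When every probe set was tested its adjusted p was 0.0524, within 0.0046 to 0.282 across alternatives. The cytokine gene MIF differed by -0.09 (adjusted p = 0.593). EPO, the erythropoietin gene, lay between 4.34 and 4.43 on the 4 arrays, near the lower quartile of all probe sets (4.07 to 4.13), and differed by 0.02.

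**Figure D4:**
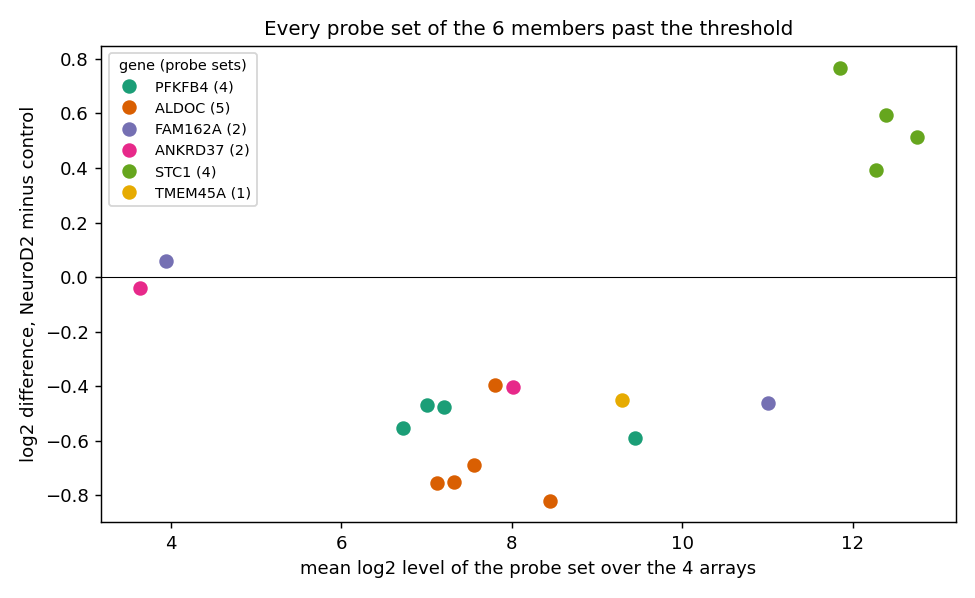
Log2 difference (NeuroD2 minus control, y axis) of every probe set of the 6 members past the threshold, against its mean log2 level over the 4 arrays (x axis); the legend gives the number of probe sets per gene. The probe sets of ALDOC, PFKFB4 and STC1 keep 1 direction each, while the dim second probe sets of FAM162A and ANKRD37 lie near 0.

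The promoters of the 5 genes that fell are shown because the HIF motif is defined by its letters. Each is the 250 bases before the gene's start site in RefSeq (GRCh38.p14), read 5′ to 3′ on the gene's strand, with the core of the hypoxia response element in capitals. The core was searched as ACGTG and as GCGTG on both strands (CACGT and CACGC as printed for the opposite strand).
ALDOC promoter, chr17:28576896-28577145, minus strand: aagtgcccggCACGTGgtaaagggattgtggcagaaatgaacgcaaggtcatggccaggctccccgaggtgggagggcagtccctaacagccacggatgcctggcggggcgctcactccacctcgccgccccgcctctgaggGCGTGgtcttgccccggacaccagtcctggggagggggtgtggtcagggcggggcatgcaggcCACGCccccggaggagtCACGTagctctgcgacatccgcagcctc
PFKFB4 promoter, chr3:48556804-48557053, minus strand: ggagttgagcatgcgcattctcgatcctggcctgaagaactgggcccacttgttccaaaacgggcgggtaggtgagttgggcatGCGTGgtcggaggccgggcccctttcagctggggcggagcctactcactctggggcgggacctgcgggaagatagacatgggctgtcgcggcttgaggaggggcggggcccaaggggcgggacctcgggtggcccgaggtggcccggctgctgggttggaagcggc
FAM162A promoter, chr3:122383932-122384181, plus strand: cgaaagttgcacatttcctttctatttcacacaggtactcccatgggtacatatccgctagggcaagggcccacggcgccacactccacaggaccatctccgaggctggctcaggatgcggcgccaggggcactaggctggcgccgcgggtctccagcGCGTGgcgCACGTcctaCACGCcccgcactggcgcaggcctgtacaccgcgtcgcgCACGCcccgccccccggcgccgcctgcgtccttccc
TMEM45A promoter, chr3:100492369-100492618, plus strand: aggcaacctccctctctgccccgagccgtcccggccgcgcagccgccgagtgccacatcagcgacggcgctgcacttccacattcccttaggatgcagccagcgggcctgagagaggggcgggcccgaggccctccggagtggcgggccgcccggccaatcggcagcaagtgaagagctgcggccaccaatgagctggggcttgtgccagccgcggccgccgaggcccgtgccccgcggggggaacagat
ANKRD37 promoter, chr4:185396591-185396840, plus strand: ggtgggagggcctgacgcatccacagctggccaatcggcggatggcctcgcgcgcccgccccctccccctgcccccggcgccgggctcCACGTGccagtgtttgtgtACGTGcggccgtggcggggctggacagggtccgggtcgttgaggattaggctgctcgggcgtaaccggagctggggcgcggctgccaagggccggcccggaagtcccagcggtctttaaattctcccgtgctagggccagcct
Of the 5 windows, 4 held at least 1 core, as did 36 of the 44 members with a promoter (81.8%, counting all windows of a gene) and 57.5% of array genes. ANKRD37 had 3 matches to ACGTG and 0 to GCGTG. ALDOC had 3 matches to ACGTG and 2 to GCGTG. In each of these windows 2 of the ACGTG matches were the 2 strands of a single CACGTG, which is also an E-box (CANNTG), the class of motif that basic helix-loop-helix factors bind. FAM162A had 1 match to ACGTG and 3 to GCGTG, PFKFB4 had 1 match to GCGTG, and TMEM45A had 0 to either. Promoters were found for 44 of the 50 members, in 70 windows because some genes have several start sites. ACGTG was present in 44.3% of the member windows, against 20.2% of 20403 windows of array genes and 18.5% of all 35116 windows of the table. GCGTG was present in 40% of member windows, against 38.5% of those of array genes. The member windows were richer in G and C (median 69.8%, against 62.4% in windows of array genes), and no matching for base content was done. CAGATG and CAGCTG, E-boxes preferred by neurogenic factors, were present in 2.86% and 5.71% of member windows, against 10% and 13.7% of windows of array genes. Among the 5 genes that fell, CAGATG was in 0 windows and CAGCTG in 2, those of PFKFB4 and ANKRD37. A match describes the letters of a window and says nothing of whether a factor was bound there.

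The 5 collagen-folding members all had differences below 0, and none passed. ERO1A encodes the oxidase that drives disulfide formation in the endoplasmic reticulum. It had log2 levels of 9.31 and 9.38 with the NeuroD2 vector and 9.72 and 9.93 with the control vector. The groups did not overlap, and the difference of -0.48 was just outside the threshold (adjusted p = 0.0524), while the last member inside it was FAM162A. The collagen prolyl hydroxylase genes P4HA1 and P4HA2 differed by -0.20 (adjusted p = 0.25) and -0.14 (adjusted p = 0.334). The lysyl hydroxylase genes PLOD1 and PLOD2 differed by -0.15 and -0.02, and for both the groups overlapped.

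The 3 members JMJD6, KDM4B and KDM3A, dioxygenases that act on histones and other proteins, had differences at or above 0, and none passed. JMJD6, which acts on lysines and arginines of several proteins, had log2 levels of 10.29 and 10.28 with the NeuroD2 vector and 9.98 and 9.74 with the control vector. Its difference was 0.42 (adjusted p = 0.0729), and a dimmer second probe set differed by -0.07. The histone demethylase gene KDM4B had 7.31 and 7.35 with the NeuroD2 vector and 6.95 and 7.09 with the control vector (difference 0.31, adjusted p = 0.104). In both genes the control arrays were further apart than the NeuroD2 arrays. KDM3A, a demethylase of the same histone residue, differed by 0.002, with -0.11 and -0.22 on its other probe sets.

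Lipid, glycogen and iron genes also did not pass. HILPDA, a lipid droplet protein gene, had log2 levels of 8.40 and 8.33 with the NeuroD2 vector and 8.77 and 8.67 with the control vector (difference -0.36, adjusted p = 0.0657). VLDLR, a lipoprotein receptor gene, had 8.44 and 8.46 with the NeuroD2 vector and 8.75 and 8.77 with the control vector (difference -0.31, adjusted p = 0.0716). In both genes the groups were apart, with the NeuroD2 arrays lower. ANGPTL4, a secreted inhibitor of lipoprotein lipase, had 7.23 and 7.17 with the NeuroD2 vector and 7.07 and 6.80 with the control vector (difference 0.27, adjusted p = 0.231). That of ANGPTL4 was 0.40 if control replicate 1 was left out and 0.13 if control replicate 2 was. The glycogen branching enzyme gene GBE1 differed by -0.12 and the muscle-type glycogen synthase gene GYS1 by -0.13. TFRC, the transferrin receptor gene of iron uptake, had 12.23 and 12.32 with the NeuroD2 vector and 12.51 and 12.56 with the control vector (difference -0.26, adjusted p = 0.12). TF, the gene of transferrin itself, lay higher with the NeuroD2 vector, at 5.73 and 5.62, against 5.40 and 5.38 with the control vector (difference 0.28, adjusted p = 0.113). These levels are below the array medians, near 5.98. Its dimmer probe sets, at means of 3.34 to 4.90, differed by 0.01 to 0.19. With the mean of all 4 the difference was 0.14 (adjusted p = 0.334 by limma).

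**Figure D5:**
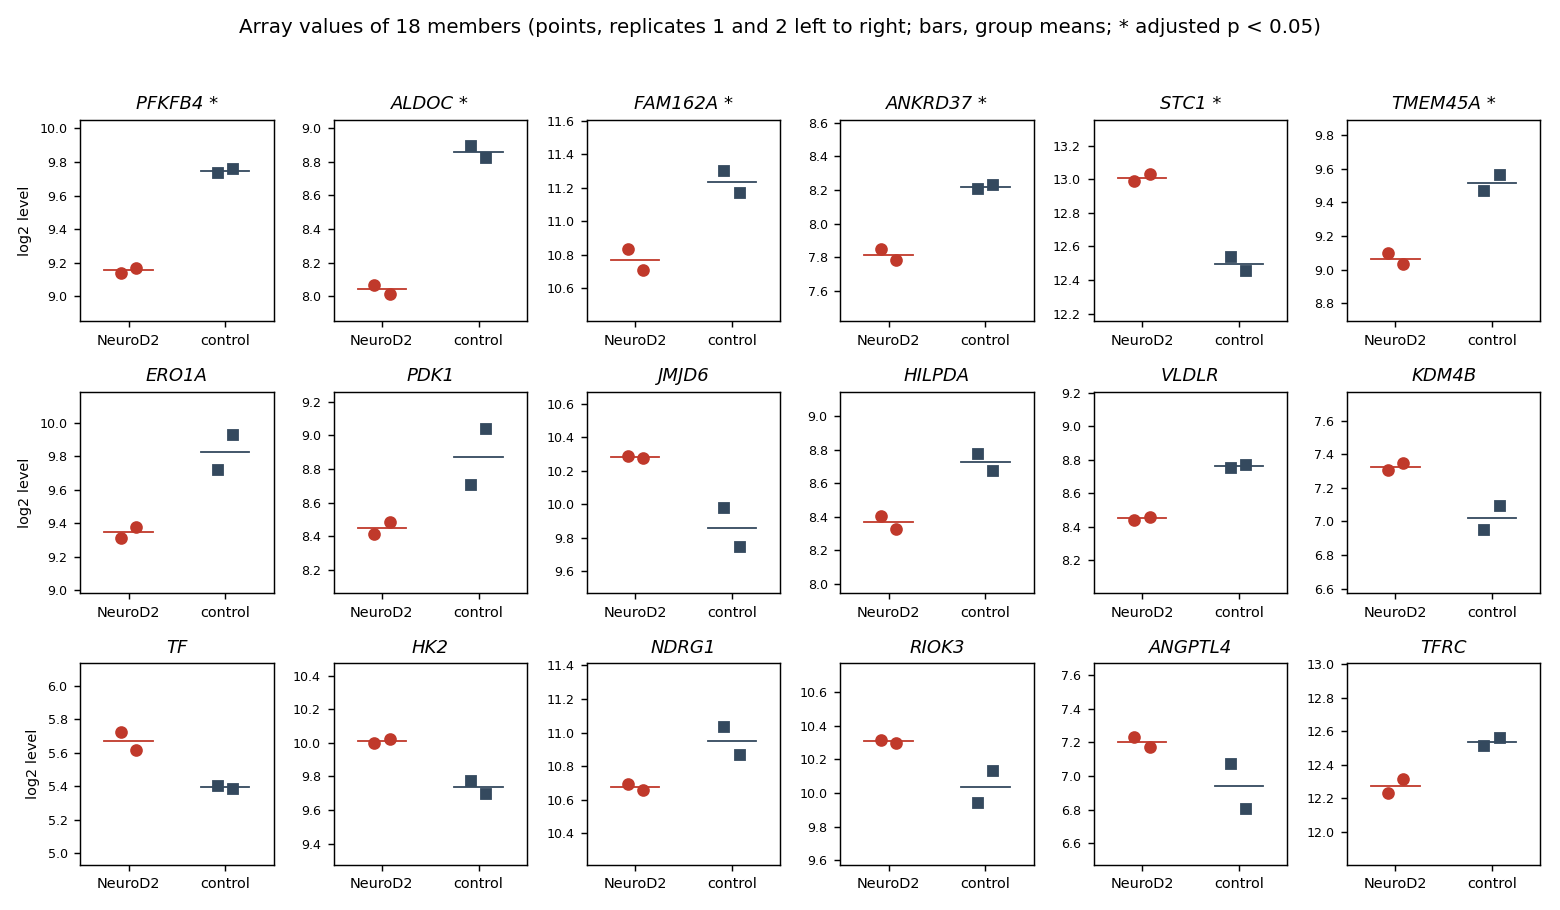
Log2 level (y axis, a range of 1.2 units in every panel) on each array of 18 members, with the NeuroD2 arrays on the left and the control arrays on the right of each panel and bars at the group means. In the 6 panels of the top row, marked with asterisks, the adjusted p was below 0.05. The other 12 members were picked for the largest remaining differences. The groups do not overlap in any panel, which this choice favours, nor do they in 50.8% of all genes.

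Other genes of the same pathways were compared through 5 further lists. Of 23 measured HIF targets outside the member list, 2 fell, 2 rose and 19 did not pass, with a median difference of -0.09. By the same test 2.96% of all genes fell and 1.81% rose, and 4.68% of the brighter genes fell and 3.07% rose. The difference was below 0 in 15 of the 23, against 49.9% of all genes and 56.4% of the brighter ones. SPAG4, a nuclear envelope protein gene, had the largest difference. Its log2 levels were 7.26 and 7.15 with the NeuroD2 vector and 8.41 and 8.18 with the control vector, a fall of 1.09, or 2.13-fold (adjusted p = 0.0089 by limma). NRN1, which encodes the neurite-promoting protein neuritin, fell by 0.39 (adjusted p = 0.0416). CITED2, whose product competes with HIF for a coactivator, rose by 0.43 (adjusted p = 0.043), and the nuclear receptor gene RORA rose by 0.55 (adjusted p = 0.0406). The angiogenic factor gene VEGFA, chosen after its value was seen, was at 12.55 ± 0.01 with the NeuroD2 vector and 12.33 ± 0.08 with the control vector (SD, n = 2 each; difference 0.23, adjusted p = 0.17). The larger differences that did not pass were all below 0, among them CCNG2 (-0.48), PGM1 (-0.38) and PPP1R3B (-0.35). The genes INSIG2 and EFNA1, whose names the member list carries with a suffix, differed by -0.37 (adjusted p = 0.0769) and 0.06 (adjusted p = 0.885).

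Among 9 HIF subunit and oxygen-sensor genes, 1 rose and 8 did not pass. EPAS1, which encodes the HIF-2 alpha subunit, had log2 levels of 11.81 and 11.89 with the NeuroD2 vector and 11.39 and 11.43 with the control vector, a rise of 0.44 (adjusted p = 0.0382). HIF1A was at 12.24 ± 0.03 with the NeuroD2 vector and 12.25 ± 0.21 with the control vector (SD, n = 2 each), a difference of -0.01 with a 95% interval of -0.29 to 0.27. HIF alpha subunits are controlled largely through protein stability, which these arrays do not measure.

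The isozyme genes outside the member list did not pass in any of 17 cases (median -0.001, lowest adjusted p = 0.133), nor did the 6 pentose phosphate genes (median -0.05, lowest adjusted p = 0.216). At an unadjusted p below 0.05 there were 3 of the 17 isozyme genes and 1 of the 6 pentose phosphate genes. There were 4 of the 21 genes of pyruvate dehydrogenase and the citric acid cycle. There were 2 of the 9 HIF subunit and sensor genes and 14 of the 23 other HIF targets. The share was 21.8% of all genes and 30.6% of those at or above the median level. EGLN1 and EGLN3 belong to both the sensor list and the list of other HIF targets. Of 21 genes of pyruvate dehydrogenase and the citric acid cycle, 1 fell and 20 did not pass (median -0.07). That gene was MPC1, a subunit of the carrier that brings pyruvate into mitochondria, with log2 levels of 8.11 and 8.08 with the NeuroD2 vector and 8.50 and 8.65 with the control vector (a fall of 0.48, adjusted p = 0.0408 by limma). With any 1 array left out, SPAG4, NRN1 and MPC1 stayed lower and CITED2, RORA and EPAS1 stayed higher with the NeuroD2 vector. SPAG4 differed by -1.20 to -0.98 in these fits. None of the 6 passed there, but few or no genes of the whole array did.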

How the data were processed

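RNA of 4 U87MG samples was measured on 1-colour Affymetrix PrimeView arrays. The deposited values are 49395 probe set levels taken to be log2, from their range (2.65 to 14.29) and medians near 5.98. Their medians hardly differ between arrays; the authors' software, background correction and normalization were not given in the sources used here. Array number limits the precision. Symbols came from the platform annotation: 44988 probe sets had 1 symbol, 1832 several and 2473 none, and 102 were controls. Groups were compared with limma 3.58.1 in R 4.3.3 (lmFit and eBayes, group only, two-sided, 2 residual and 3.84 prior degrees of freedom) over 18132 genes, with Benjamini-Hochberg adjustment and a threshold of 0.05. With 2 arrays a group, the smallest two-sided p of an exact permutation test is 0.333. Differences are NeuroD2 minus control. The fit was tested on simulated data. Array values were given for members past the threshold and the 12 others with the largest differences. Members, lists and tests were chosen with earlier results of these data known. Replicate numbers were not treated as pairs (correlation of same-numbered deviations 0.082). Alternatives were a replicate block, leaving out each array, quantile normalization, median centring, an intensity trend, a robust prior, a level filter and other uses of probe sets.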

Additional observations from a re-analysis of the deposited data

How the results depend on the processing

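The median difference over the members stayed negative in all 13 alternatives, moving to -0.0914 without control replicate 1 (from -0.118 to -0.0914 over the fits without 1 array) and to -0.091 when probe sets without the suffix s_at or x_at were preferred, an alternative chosen after seeing the data. With the replicate number as a block, 2 members were lower and 0 higher, 335 genes passed in all, and 1 gene of the comparison lists passed. With every probe set tested on its own, 2 members were lower and 1 higher, against 1.96% and 1.29% of all genes, and 1 gene of the comparison lists passed. Preferring probe sets without those suffixes left 3 members lower and 1 higher, against 2.44% and 1.62% of all genes. With the mean of probe sets, 7 members were lower and 2 higher, against 3.93% and 2.61% of all genes. With an intensity trend, 13 members were lower and 4 higher, against 7.13% and 4.21% of all genes, with 2056 genes passing and 14 of the comparison lists. In a fit restricted to the brighter genes, 14 of 48 members were lower and 4 higher, against 14.1% and 8.81% of genes, with 2081 genes passing and 15 of the comparison lists. Without 1 array, 0 members passed in either direction, 0 to 66 genes passed in all, and 0 of the comparison lists. NEUROD2 differed by 1.97 to 2.42 without 1 array. It was reversed (-0.21, adjusted p = 0.495) on its brightest probe set without those suffixes. The cause of these changes was not tested. With the block, ALDOC and PFKFB4 passed, while FAM162A, ANKRD37, STC1 and TMEM45A did not (adjusted p from 0.0616 to 0.0818), nor did CITED2, RORA, NRN1, EPAS1 and MPC1 (0.0688 to 0.0798). None of the 18 members given with array values in the plot of named members, and none of the 6 genes of the comparison lists that passed, reversed in an alternative. The other genes were refitted with the rest, but their values in the alternatives were not listed singly. By their array values, several with a difference near 0 changed sign when 1 array was left out. Among them, GAPDH, GPI and ENO1 turned positive and KDM3A negative without control replicate 1. Without control replicate 2, PLOD2 and HIF1A turned positive and HK1 and EPO negative. The replicate numbers were not taken to pair the arrays, since the labels tie them to no shared culture or day.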

Other observations

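Several members were read on probe sets that gave unlike values. Of the 36 members with more than 1 probe set, 27 had every probe set on the same side of 0 as the brightest. WSB1, a ubiquitin ligase subunit gene, had 7 probe sets with log2 differences (NeuroD2 minus control) from -0.19 to 0.45, the highest on a probe set with a mean level of 5.68 (adjusted p = 0.0775 over all probe sets). PGK1, the phosphoglycerate kinase gene, had 9 probe sets, all with differences below 0, from -0.02 to -0.31. Its brightest, at a mean level of 13.09, differed by -0.03, and the one with the difference of -0.31 had a mean level of 11.19 (adjusted p = 0.102). TFRC had 3 probe sets with differences of -0.26, -0.38 and -0.33, of which the brightest had the smallest difference. These genes were chosen after their values were seen.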
